A study of Homo sapiens with 5 samples.

Results

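Prostaglandin genes were followed in clones of the human esophageal carcinoma cell line TE7 that carried either a control construct or one expressing the cadherin CDH26. The genes were chosen by name to cover prostaglandin synthesis, breakdown, receptors and uptake. Of 10 genes listed, 8 had a named probe set on the array, of 14812 named genes in all. They were PTGS1, PTGS2, PTGES, PTGES2 and PTGES3 for synthesis, HPGD and PTGR1 for breakdown, and the receptor gene PTGER4. The receptor gene PTGER2 and the uptake carrier gene SLCO2A1 were not analysed here. The list was drawn up with the difference between the groups already known, so that difference is given below as a description, and counts of calls and intervals beside it are part of that description, not a test of single genes of the list.

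The control group held 2 clones transduced with pMIRNA1-puro-control, and the other group held 3 clones transduced with pMIRNA1-puro-CDH26. Each clone was derived from a single cell, grown to confluence and then kept for 24 h in RPMI with 1.8 mM calcium, conditions that all 5 clones share. One Affymetrix Gene 2.0 ST array was hybridised per clone, so the spread within a group is the spread between clones and includes differences that clones of 1 construct can have from each other. Nothing in the labels says whether the clones of a group came from separate transductions.

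Prostaglandins are lipid signals made from arachidonic acid. The cyclooxygenases PTGS1 (COX-1) and PTGS2 (COX-2) turn arachidonic acid into prostaglandin H2, PTGS1 being made constitutively in many tissues and PTGS2 mostly upon stimulation. Terminal synthases such as PTGES then form prostaglandin E2, which acts on the cell surface receptors EP2 (PTGER2) and EP4 (PTGER4), both of which raise cyclic AMP. The signal ends when SLCO2A1 carries prostaglandins into the cell and HPGD oxidises them. In squamous and other gastrointestinal cancers PTGS2 is often high and HPGD often low.

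The deposited values are logarithms, read here as log2, of each clone against the average of the 2 control clones. They give differences between clones and hold no expression level, and the values of the control clones are equal and opposite for every gene. Whether these cells express the defining markers of a squamous line can therefore not be read from them, nor can one gene's level be set against another's. CDH26 itself was between 2.63 and 3.01 in the CDH26 clones and within 0.01 of 0 in the controls, so the transcript matched the construct labels. The clones differed within groups too. Control clones 1 and 2 differed by at least 1 log2 unit in 183 named genes, CDH26 clones 1 and 2 in 9, and CDH26 clone 3 differed that much from CDH26 clones 1 and 2 in 75 and 62 genes. From control clone 1 it differed that much in 33 genes, fewer than from the clones of its own group, and from control clone 2 in 157. The small number of arrays limits the precision.

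Both cyclooxygenase transcripts had higher values in all 3 CDH26 clones than in either control clone, and the transcript of the inducible terminal synthase, PTGES, had lower values in all 3. HPGD, the main inactivating enzyme, was higher on average, with 1 CDH26 clone inside the range of the controls. The other terminal synthases, PTGES2 and PTGES3, the reductase PTGR1 and the receptor PTGER4 differed by 0.16 log2 units or less between group means. Of these 8 genes 0 passed an adjusted p of 0.05 in limma, as did 0 of the 14812 named genes (0% called). Without control clone 1, a fit in which the spread comes from the CDH26 clones alone and the lone control clone is taken to share it, 186 genes or 1.26% passed, and 0 of the 8. In 2 of the 8 all CDH26 clones lay above both control clones, against 8.98% of all named genes, and in 2 all lay below, against 9.93%. Since the list was drawn up with this contrast known, nothing is read from these counts.

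**Figure D1:**
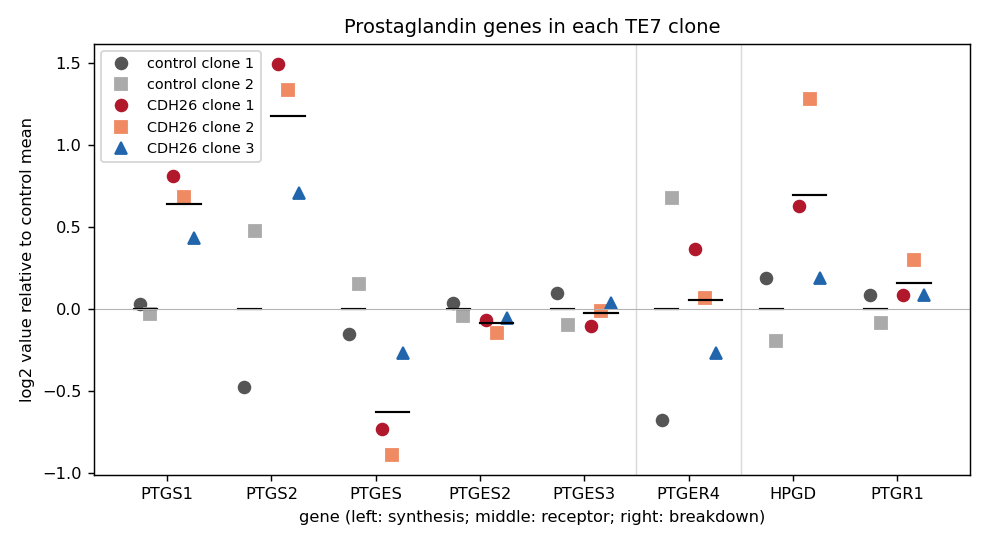
Each of the 8 prostaglandin genes in each clone, as a log2 value against the control average (vertical axis), ordered by role along the horizontal axis; short black lines are group means. PTGS1 and PTGS2 have all CDH26 clones above the controls and PTGES has all of them below, with CDH26 clone 3 (blue triangles) nearest the controls in each, while PTGER4 has its widest gap between the control clones themselves.

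The sequences before the starts of PTGS1, PTGS2 and PTGES are shown because these are the synthesis genes with the largest differences between the groups. They are the 250 bases before each annotated start in RefSeq, build GRCh38.p14, written 5′ to 3′ on the strand of the gene. PTGS2 is on the minus strand at chr1:186680424-186680673 and PTGES on the minus strand at chr9:129753043-129753292. PTGS1 has 2 annotated starts on the plus strand, with windows at chr9:122370283-122370532 (start 1) and chr9:122375052-122375301 (start 2). The deposited values do not tell which start was used. Capitals mark matches, on either strand, to any of 6 motifs: the TATA box TATAAA, the cyclic AMP response half-site CGTCA, the C/EBP site TTNNGNAAT, a kappa-B-like site (GGG, then NNTNN, then CC), the GC box GGGCGG and the EGR1 site GCGTGGGCG. These motifs were picked with the sequences in view.
PTGS2: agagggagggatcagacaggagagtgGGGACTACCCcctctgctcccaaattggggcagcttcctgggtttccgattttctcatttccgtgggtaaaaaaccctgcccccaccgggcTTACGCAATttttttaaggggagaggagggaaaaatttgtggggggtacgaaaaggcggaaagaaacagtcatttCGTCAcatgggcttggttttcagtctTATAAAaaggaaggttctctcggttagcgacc
PTGS1 start 1: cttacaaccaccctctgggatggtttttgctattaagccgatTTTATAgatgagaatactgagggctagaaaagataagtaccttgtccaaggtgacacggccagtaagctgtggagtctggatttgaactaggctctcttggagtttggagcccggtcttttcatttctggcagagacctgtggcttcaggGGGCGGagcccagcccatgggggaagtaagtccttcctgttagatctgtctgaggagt
PTGS1 start 2: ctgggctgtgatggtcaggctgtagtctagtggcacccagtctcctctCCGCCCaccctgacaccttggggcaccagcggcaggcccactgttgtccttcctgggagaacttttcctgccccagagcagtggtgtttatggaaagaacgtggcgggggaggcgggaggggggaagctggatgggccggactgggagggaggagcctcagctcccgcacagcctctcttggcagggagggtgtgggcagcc
PTGES: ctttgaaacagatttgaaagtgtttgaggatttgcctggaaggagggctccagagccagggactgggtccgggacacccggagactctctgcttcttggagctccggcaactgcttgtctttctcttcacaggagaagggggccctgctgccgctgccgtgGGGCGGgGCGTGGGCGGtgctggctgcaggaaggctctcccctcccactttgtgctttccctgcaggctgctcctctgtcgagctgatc

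The PTGS2 window held 4 of the 6 motifs, each with 1 match: the TATA box 32 to 27 bases before the start, the cyclic AMP half-site 58 to 54, the C/EBP site 133 to 125 and the kappa-B-like site 224 to 215 bases before it. Among the 35116 RefSeq promoter windows of the same length, the TATA box occurred in 10.7%, the cyclic AMP half-site in 21.2%, the C/EBP site in 9.85% and the kappa-B-like site in 19.7%. The PTGES window held none of these 4 but had 2 GC boxes, a motif of 42.6% of windows, and 1 EGR1 site, a motif of 0.72%; the EGR1 site, 82 to 74 bases before the start, overlaps the second GC box. Each PTGS1 window held 1 GC box. The window of start 1 also had a TATA box on the opposite strand, 208 to 203 bases before the start. Windows of other prostaglandin genes held some of the same motifs, but that of PTGR1 held none of the 6. A window of PTGES2, whose difference between the groups was −0.09, also had an EGR1 site, 147 to 139 bases before its start. Kappa-B-like sites also occurred before PTGES3 and PTGER4, and cyclic AMP half-sites before PTGES3 and HPGD. All these matches describe letters in the windows and are not measured binding sites.

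PTGS2, the inducible cyclooxygenase, had the largest difference of the 8 genes with all clones included. Its log2 values in CDH26 clones 1, 2 and 3 were 1.50, 1.34 and 0.71, and control clones 1 and 2 were at −0.48 and 0.48. CDH26 clones 1 and 2 stood together well above the controls, while CDH26 clone 3 lay 0.23 above control clone 2. The mean of the CDH26 clones was 1.18 ± 0.42 (SD, n = 3), a 2.27-fold difference from the controls, whose SD was 0.67 (n = 2). The standard error of the difference was 0.42, with a 95% interval from 0.01 to 2.35. Of all named genes, 99.6% had a smaller difference between the groups. The control clones also differed more from each other in PTGS2, by 0.95, than they did in 98.6% of named genes, so the group difference was 1.24 times the difference between the controls. Without control clone 1 the difference was 0.70 and without control clone 2 it was 1.66; with 1 CDH26 clone left out it lay between 1.02 and 1.42. Without control clone 1 it was smaller in size than those of HPGD, at 0.89, and PTGES, at −0.78.

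PTGS1, the constitutive cyclooxygenase, had a smaller difference with closer clones. CDH26 clones 1, 2 and 3 were at 0.81, 0.68 and 0.43, and control clones 1 and 2 at 0.03 and −0.03. All 3 CDH26 clones stood clear of the controls, by at least 0.40, and CDH26 clone 3 was again the lowest of them. The difference was 0.64 ± 0.13 (SE; 95% interval 0.28 to 1.01), or 1.56-fold, with an SD of 0.19 among the CDH26 clones and 0.04 between the controls. It was 10.1 times the difference between the control clones, and it stayed between 0.56 and 0.75 with any 1 clone left out. The difference was larger for PTGS2 than for PTGS1 in log2 units, but without control clone 1 they were 0.70 and 0.67.

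PTGES, the membrane-bound terminal synthase that is induced along with PTGS2 in many cells, had the opposite sign. CDH26 clones 1, 2 and 3 had log2 values of −0.73, −0.89 and −0.27, where control clones 1 and 2 had −0.15 and 0.15. CDH26 clone 3 was only 0.11 below control clone 1, and clones 1 and 2 were much lower. The difference was −0.63 ± 0.23 (SE; 95% interval −1.29 to 0.03), with an SD of 0.32 among the CDH26 clones. It ranged from −0.81 without CDH26 clone 3 to −0.47 without control clone 2. In each of the CDH26 clones, then, both cyclooxygenase transcripts lay above the control mean and PTGES lay below it.

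PTGES2, a second membrane-associated synthase, was nearly level between the clones. The values were −0.07, −0.14 and −0.05 with the CDH26 construct (clones 1, 2 and 3) and 0.04 and −0.04 with the control construct (clones 1 and 2). All 3 CDH26 clones were below both controls, but CDH26 clone 3 by only 0.01. The difference was −0.09 ± 0.04 (SE; 95% interval −0.21 to 0.04), and −0.05 without control clone 1. PTGES3, the cytosolic synthase better known as the HSP90 cochaperone p23, was at −0.10, −0.01 and 0.04 in the CDH26 clones, against 0.10 and −0.10 in the controls, so the groups overlapped, with CDH26 clone 1 slightly below control clone 2. Its difference was −0.03 ± 0.08 (SE; 95% interval −0.25 to 0.20). This gene had 2 probe sets, whose mean was used. Among the 3 terminal synthases the large difference was thus that of PTGES.

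HPGD encodes 15-hydroxyprostaglandin dehydrogenase, which oxidises prostaglandin E2 to a form with little activity. For this gene CDH26 clones 1, 2 and 3 had log2 values of 0.63, 1.28 and 0.19, and control clones 1 and 2 had 0.19 and −0.19. CDH26 clone 2 was the highest, and CDH26 clone 3 fell 0.004 short of control clone 1, so the groups overlapped. The difference was 0.70 ± 0.38 (SE; 95% interval −0.37 to 1.77), or 1.62-fold, with an SD of 0.55 among the CDH26 clones. It was 0.41 without CDH26 clone 2 and 0.95 without CDH26 clone 3. CDH26 clones 1 and 2, the pair of clones with the fewest genes apart by 1 log2 unit, differed from each other in HPGD by 0.65, more than in 99.5% of named genes.

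PTGR1 encodes prostaglandin reductase 1, which reduces the products of HPGD and also leukotriene B4 derivatives. It was at 0.30 in CDH26 clone 2, at 0.09 in CDH26 clones 1 and 3 and in control clone 1, and at −0.09 in control clone 2. The value shared by 3 arrays was the same to within 1e-05, a kind of tie that is common in the deposited table and whose origin is not recorded. The difference was 0.16 ± 0.10 (SE; 95% interval −0.12 to 0.44), and it ranged from 0.07 without control clone 2 to 0.24 without control clone 1.

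PTGER4 encodes the EP4 receptor, through which prostaglandin E2 raises cyclic AMP. It was at 0.37, 0.07 and −0.27 in CDH26 clones 1, 2 and 3, all of which lay between control clone 1 at −0.68 and control clone 2 at 0.68. The difference between the control clones was 1.35, larger than in 99.5% of named genes. The difference between the groups was 0.06 ± 0.49 (SE; 95% interval −1.32 to 1.43), and it turned from 0.73 without control clone 2 to −0.62 without control clone 1. That interval takes in differences of 1 log2 unit in either direction.

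**Figure D2:**
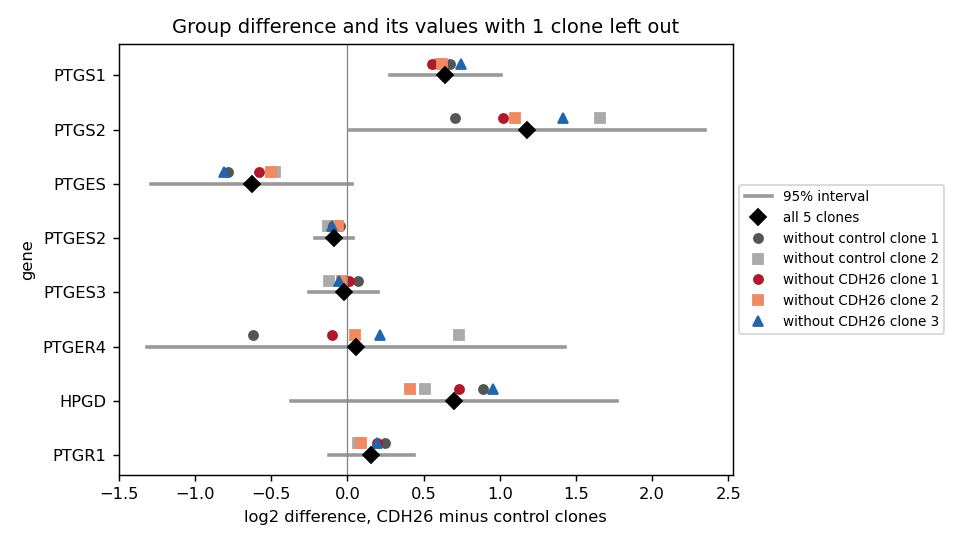
The difference between CDH26 and control clones for each gene (black diamonds, log2 units on the horizontal axis) with its 95% interval from limma (grey bars) and its value with each clone left out in turn (coloured symbols). PTGS1 stays between 0.56 and 0.75, PTGS2 spreads from 0.70 to 1.66 with the choice of control clone, and PTGER4 lies on either side of 0.

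The clones of a group can also be compared with each other in these genes. CDH26 clone 3 was nearer to the control mean than the other CDH26 clones in PTGS1, PTGS2, PTGES and HPGD. It differed from the mean of CDH26 clones 1 and 2 by −0.31 in PTGS1, −0.71 in PTGS2, 0.54 in PTGES and −0.77 in HPGD. These departures were larger than in 92.2%, 98.9%, 97.8% and 99.1% of named genes in the same order. CDH26 itself was lower in CDH26 clone 3 by 0.31, a departure larger than in 91.9% of genes. Control clone 2 was above control clone 1 in PTGS2, PTGES and PTGER4 and below it in the other 5 genes. Each clone was measured on 1 array, so these differences have no replicate check.

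**Figure D3:**
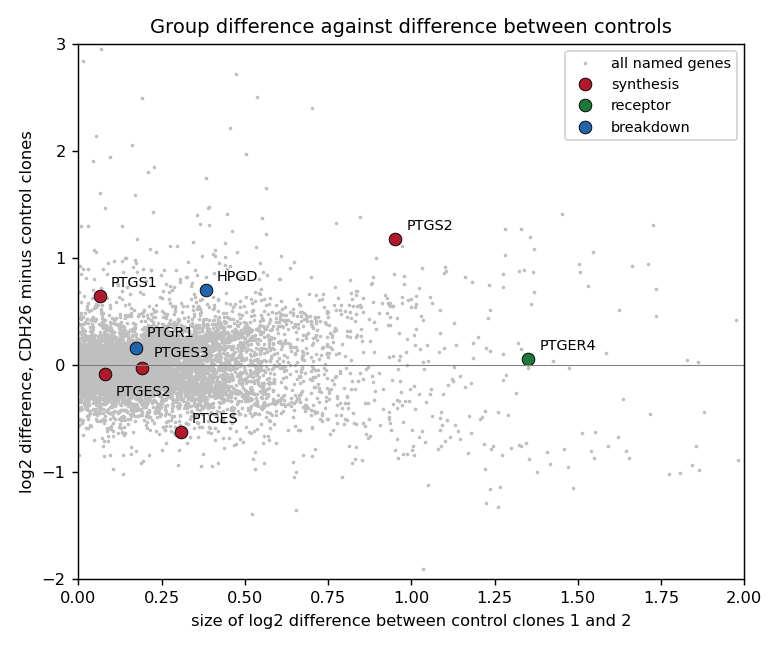
For each named gene (grey points), the difference between the groups (vertical axis, log2 units) against the size of the difference between the control clones (horizontal axis, log2 units); 28 genes lie beyond the axes. PTGS1 combines a group difference of 0.64 with a control difference of 0.06, PTGS2 has 1.18 against 0.95, and PTGER4 has 0.06 against 1.35.

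The genes whose 5 values were closest to those of PTGS2, by Euclidean distance over the 5 clones, were OASL, IFIT1 and IL20RB, at distances of 0.32, 0.38 and 0.40 log2 units with all clones included. OASL and IFIT1 are induced by interferon, and IL20RB is a receptor chain for cytokines of the IL-20 group. Their values in CDH26 clones 1, 2 and 3 were 1.76, 1.42 and 0.81 for OASL, 1.81, 1.48 and 0.84 for IFIT1, and 1.51, 1.65 and 0.64 for IL20RB. In each of them control clone 2 was the higher control, as in PTGS2. Closest to HPGD were GPX2, an epithelial glutathione peroxidase, AGR2, a disulfide isomerase of secretory epithelia, and the aminopeptidase ENPEP, at distances of 0.25, 0.30 and 0.31. In each of these 3 genes CDH26 clone 2 was the highest clone, at 1.08, 1.07 and 1.13, and control clone 1 was the higher control. The genes closest to PTGS2 and to HPGD were picked by these same values. A clone order shared with PTGS2 or HPGD therefore follows largely from the choice and is no separate observation.

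Genes on either side of the pathway were described from 11 lists arranged by role, with 120 of 231 listed genes having a named probe set. None of the 120 passed an adjusted p of 0.05 in limma. At an unadjusted p under 0.05, 10 were higher and 8 lower in the CDH26 clones, against 3.51% and 4.00% of all named genes. The median difference over the 120 genes was −0.01, beside 0 over all named genes. The adjusted p in limma was 0.626 for each related gene named below with a difference, except PTGFR at 0.662. Of the 22 related genes named for the smallest unadjusted p of their list in limma, 11 moved by over 1.5 times with some clone left out. Without control clone 2 and without control clone 1, in that order, the differences were 0.03 and 0.46 for PTGR2, 0.06 and 0.22 for PTGR3, −0.16 and −0.62 for SRXN1, −0.15 and −0.40 for PTGIS and 0.15 and 0.37 for CBR1. In the same order they were −0.06 and −0.18 for MBOAT7, 0.40 and 0.82 for EGR1 and −0.06 and 0 for PTGFR. FADS2 was at −0.21 without CDH26 clone 2, and without CDH26 clone 1 PTGDR was at 0.05 and SNAI2 at −0.04. Among the same 22 genes, MBOAT7, PTGIS, PTGDR, PTGFR, FOSB and SRXN1 held values tied between arrays.

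Supply of arachidonic acid showed no gene at an unadjusted p under 0.05 among the 10 measured of 27 listed, and their median difference was 0.03. FADS2, a desaturase that helps make arachidonic acid, was at −0.42, −0.54 and −0.01 in CDH26 clones 1, 2 and 3 and at −0.02 and 0.02 in the controls, a difference of −0.32 ± 0.19 (SE). MBOAT7, which places arachidonic acid in phosphatidylinositol, differed by −0.12 ± 0.07. The phospholipase A2 genes, which release it, were not analysed here.

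Of the other prostanoid synthases 8 of 13 were measured, with a median of 0.04. CBR1, a carbonyl reductase that can turn prostaglandin E2 into prostaglandin F2 alpha, was at 0.23, 0.26 and 0.29 in the CDH26 clones, above 0.11 and −0.11 in the controls, a difference of 0.26 ± 0.08 (SE). PTGIS, the prostacyclin synthase, was at −0.21, −0.21 and −0.40, below −0.13 and 0.13, with a difference of −0.28 ± 0.11. Of the other receptors 9 of 10 were measured and none separated the groups. PTGDR, the prostaglandin D2 receptor, differed by 0.08 ± 0.04 and PTGFR, the prostaglandin F receptor, by −0.03 ± 0.03. In PTGFR all 3 CDH26 clones had the value of control clone 2, so its difference comes from control clone 1 alone. In PTGDR CDH26 clone 3 was tied with control clone 2. In breakdown, PTGR2 and PTGR3, further prostaglandin reductases, were the 2 measured of 19 and differed by 0.24 ± 0.15 and 0.14 ± 0.06. The reductases PTGR1, PTGR2 and PTGR3 thus each averaged higher with CDH26, as did 47.9% of all named genes.

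Lipoxygenase and leukotriene genes, the neighbouring branch of arachidonic acid metabolism, had a median difference of 0 over 16 genes measured of 21. LTB4R, a leukotriene B4 receptor, stood apart from it. Its values were 0.82, 1.22 and 0.57 in CDH26 clones 1 to 3, against 0.07 and −0.07 in the controls, a difference of 0.87 ± 0.22 (SE). MGST2, a microsomal glutathione transferase that can make leukotriene C4, differed by 0.12 ± 0.04, with all CDH26 clones above the controls. All CDH26 clones were above both controls in 3 of the 16 genes and below them in 0, beside 8.98% and 9.93% of all named genes.

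Components downstream of EP2 and EP4 were measured for 20 of 37 genes, with 8 means higher and 12 lower in the CDH26 clones and a median of −0.02. The CREB coactivators CRTC2 and CRTC3 had opposite signs. CRTC2 was at 0.52, 0.35 and 0.18 in the CDH26 clones and 0.02 and −0.02 in the controls, a difference of 0.35 ± 0.11 (SE), while CRTC3 differed by −0.32 ± 0.10. Transcripts known to rise with cyclic AMP had a median of −0.01 over 13 genes measured of 24, with 4 means higher and 9 lower. FOSB, an AP-1 subunit, differed by −0.12 ± 0.03 and CREM, a cyclic AMP-responsive regulator, by −0.23 ± 0.08, both with all CDH26 clones below the controls. The largest difference of this list went the other way, in JUNB at 0.55 ± 0.19, with all CDH26 clones above the controls. All CDH26 clones were above both controls in 3 of the 13 genes and below them in 2, beside 8.98% and 9.93% of all named genes.

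Regulators of the PTGS2 transcript, 13 measured of 28, had a median of −0.04. EGR1, an immediate-early transcription factor that is also known to act on PTGES, was at 0.63, 0.72 and 0.49 in CDH26 clones 1 to 3, against 0.21 and −0.21 in the controls, a difference of 0.61 ± 0.16 (SE). Its 2 probe sets disagreed in size, with differences of 1.10 and 0.13. NFKB1, the p50 subunit of NF-kappa-B, was at −0.36, −0.18 and −0.30, below −0.07 and 0.07, a difference of −0.28 ± 0.08. Signals that can induce PTGS2, 14 measured of 23, had a median of −0.08 but held the widest spread of the 11 lists, from −0.87 to 2.06. EREG, the EGF receptor ligand epiregulin, was at 2.57, 2.32 and 1.28 in the CDH26 clones and at −0.08 and 0.08 in the controls, a difference of 2.06 ± 0.45. TLR3, the receptor for double-stranded RNA, was at 1.25, 1.12 and 0.64, against 0.07 and −0.07, a difference of 1.00 ± 0.22. In EREG and TLR3 as in PTGS2, CDH26 clone 1 was the highest and CDH26 clone 3 the lowest of the CDH26 clones. This order was not particular to them, since PTGS1, PTGER4 and CRTC2 had it too. MAP2K6 and MAPK13, from the same list as EREG and TLR3, did not have it. How many of all named genes have this order was not counted.

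Regulators of HPGD and of the uptake carrier, 11 measured of 18, had a median of −0.04. FOXA2, a forkhead factor known to act on HPGD, was at 0.30, 0.17 and 0.31 in the CDH26 clones, above −0.07 and 0.07, a difference of 0.26 ± 0.07 (SE), and SNAI2, a repressor of HPGD, differed by −0.07 ± 0.04. FOXA1, another forkhead factor of this list, had the opposite sign to FOXA2, at −0.39 ± 0.22. Of the 11 means 3 were higher and 8 lower with CDH26. Cochaperones and redox enzymes related to PTGES3 and PTGR1, 7 measured of 18, averaged lower with CDH26 in 7 of 7 genes, against 49.5% of all named genes, with a median of −0.18. In 2 of the 7 all CDH26 clones lay below both controls, against 9.93% of all named genes. Against control clone 1 alone, not all 7 had a lower CDH26 mean. The list was chosen with earlier results of these data known, so nothing is read from these counts. CDC37, the kinase cochaperone of HSP90, differed by −0.23 ± 0.07 and SRXN1, sulfiredoxin, by −0.39 ± 0.18. PTGES3 and PTGR1 themselves were at −0.03 and 0.16.

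**Figure D4:**
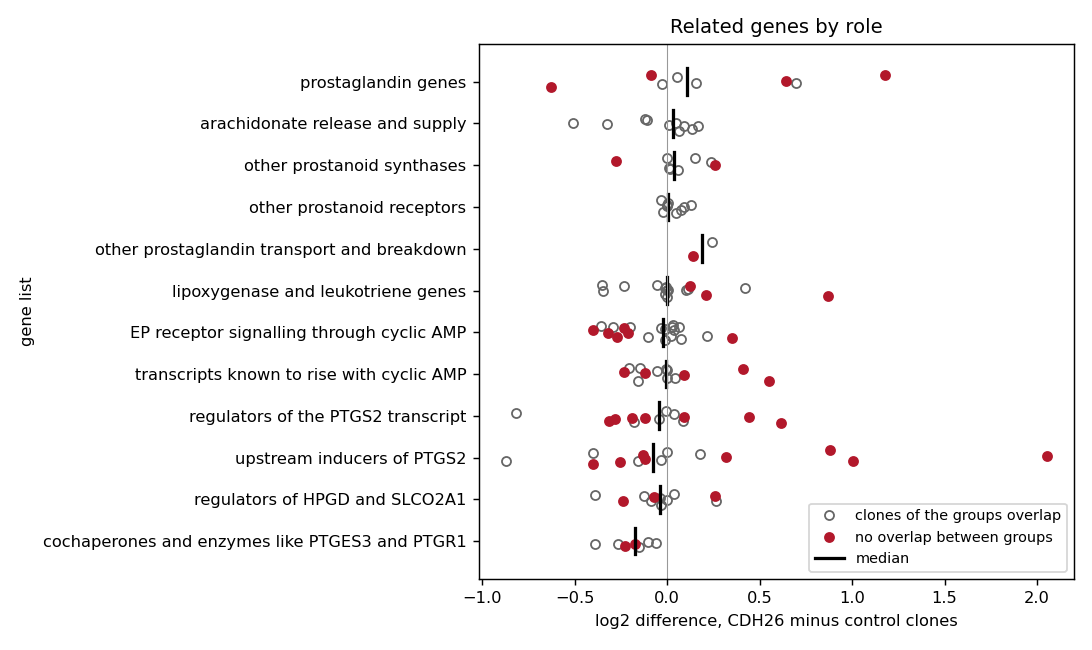
Difference between CDH26 and control clones (horizontal axis, log2 units) for the 8 prostaglandin genes and for the genes of the 11 related lists, 1 point per gene; in red points the groups do not overlap, and black bars are medians. The medians of the 11 lists lie between −0.18 and 0.19, and EREG at 2.06 is the farthest point.

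Markers of cell types were read beside these genes. Group means of all 7 squamous markers measured, of 9 listed, were higher with CDH26, with list medians of 0.72, 0.75 and 0.50 in CDH26 clones 1 to 3 and 0.24 and −0.24 in the controls. In 4 of the 7 all CDH26 clones lay above both controls, against 8.98% of all named genes, KRT5 by only 0.004. In KRT13 the groups overlapped, and in KRT4 and TRIM29 a CDH26 clone was tied with a control. Of 5 simple epithelial markers 4 had a lower mean, and in each of the 4 the groups overlapped. The other, KRT19, was higher by 0.35 ± 0.11 (SE), with all CDH26 clones above both controls. Of all named genes 47.9% had a higher mean and 49.5% a lower one. Fibroblast markers, 3 of 8 measured, leukocyte markers, 5 of 10, and endothelial markers, 2 of 5, had median differences of 0.05, 0.01 and −0.0019. A 2-fold difference with an unadjusted p under 0.05 in limma was found for 3 markers, beside 48 of the 14812 named genes. They were named after their values were seen: the basal keratin KRT14 at 2.72 ± 0.43 (SE), the proteoglycan LUM at 1.59 ± 0.42 and the lysosomal protein CD68 at 1.07 ± 0.33. The other fibroblast markers measured, DCN and FBN1, differed by 0.02 and 0.05. Differences of the other leukocyte markers, CD14, LYZ, CSF1R and KIT, lay between −0.04 and 0.10. The part of the marker shifts in the values of the prostaglandin genes was not tested.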

How the data were processed

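RNA of 5 TE7 clones was labelled with biotin and hybridised to Gene 2.0 ST arrays, per the labels' protocols. The submitters' processing notes name Affymetrix Expression Console. How probe sets were summarised and background-corrected, and on which genome build, is not given in the sources used here. The deposited values are logarithms, read as log2, that the authors centred per probe set on the mean of the 2 control clones (largest absolute sum of the control values 1e-06). Of 44607 probe sets, 15835 had 1 gene name and 0 several in the platform annotation, and the other 28772 were unnamed. All names matched a current RefSeq symbol.

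Values were averaged over the probe sets of each of 14812 genes, unfiltered, and CDH26 was set against control with limma 3.58.1 (R 4.3.3; eBayes on lmFit, group only, two-sided, Benjamini-Hochberg over all genes, threshold 0.05). Standard errors and 95% intervals come from that fit. Their accuracy for values with ties between arrays and with equal and opposite controls was not tested. With 2 and 3 clones the smallest p of an exact permutation test would be 0.1. P-values set the difference between the groups against the spread between clones, which eBayes moderates over all genes.

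The 8 prostaglandin genes and the related lists were chosen with earlier results of these data known. Other genes named are CDH26, the 2 genes of each related list with the smallest unadjusted p, any gene of these 11 lists at 2-fold and an unadjusted p under 0.05, and the 3 genes closest to PTGS2 and to HPGD. JUNB and FOXA1 were named after their values were seen. Promoter sequences are from RefSeq; all 8 genes matched. Figures were drawn with matplotlib 3.10.9.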

Additional observations from a re-analysis of the deposited data

How the results depend on the processing

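The alternatives were centring on array medians, a replicate block, array weights, robust variance, leaving out each clone, single probe sets, only genes without tied arrays, natural logarithms and an adjusted threshold of 0.1. A repeated quantile normalization, a variance trend and a filter on dim genes were not run, since centred values hold no level. The number of genes past the adjusted threshold was 0 with all clones, from 0 to 186 with 1 clone left out, 186 being without control clone 1, and 1 (CDH26) among genes without tied arrays. Genes at 2-fold and an unadjusted p under 0.05 numbered 48, and from 15 to 160 with 1 clone left out. With natural logarithms 112 did, which also turns the difference of PTGS1 into 0.93 and that of PTGS2 into 1.70. Deviations from the group mean correlated at −0.20 and −0.21 between same-numbered clones of the 2 groups. The control clones mirror each other about their mean, so these values cannot tell whether replicate numbers pair the clones. The fit with a replicate block gave 106 genes at 2-fold and an unadjusted p under 0.05 in limma. The count of prostaglandin genes past the adjusted threshold was 0 throughout. Of 89 values of these genes under the alternatives, 4 moved by more than the spread between clones. They were PTGS1 and PTGS2 with natural logarithms, and PTGER4 without either control clone. Many of the 89 could not move, so this count is no measure of stability. Median centring, robust variance and the restriction to untied genes left each difference as it was. The replicate block gave the same differences as leaving out CDH26 clone 3. PTGES3 and PTGER4 changed sign with some clones left out, and no other prostaglandin gene did.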
